A study of Macaca fascicularis with 8 samples.

Results

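The ZNF-named genes are a large set of zinc finger genes that carry only a serial number as a name. In the deposited table of cynomolgus monkey (Macaca fascicularis) gene expression they were taken as the rows whose gene name begins with ZNF and a number, with 1 row per name. They numbered 65 of 33121 rows, and no name had more than 1 row. The table named only 4302 rows in all, so these 65 are the ZNF genes that the authors' annotation names, not the family as a whole. For 62 of the 65 the protein matches listed in the table named the same gene; for ZNF485, ZNF620 and ZNF623 they named other zinc finger proteins.

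Most ZNF proteins bind DNA through arrays of C2H2 fingers, small loops that a zinc ion holds between pairs of cysteines and histidines. Many also carry a KRAB box, which recruits the co-repressor TRIM28 and, through it, the histone methyltransferase SETDB1 and the HP1 proteins, so that the bound site is packed into heterochromatin. In embryonic stem cells (ESCs) this pathway is known for silencing transposable elements and for keeping the methylation of imprinted genes. Other ZNF proteins have no KRAB box and act as ordinary transcription factors, as adaptors of chromatin complexes or in RNA metabolism.

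Polyadenylated RNA was measured in 4 libraries of dome-shaped ESCs and 4 libraries of primed ESCs. The dome-shaped cells grew in a medium called NHSMV, made of knockout DMEM with AlbuMAX I, N2 supplement, insulin, glutamine, nonessential amino acids, β-mercaptoethanol and vitamin C. To this were added human LIF, bFGF and TGF-β1, the MEK inhibitor PD0325901, the GSK3 inhibitor CHIR99021, the p38 inhibitors SB202190 and SB203580 and the JNK inhibitor SP600125; their colonies were domes and passaged strongly as single cells. Primed colonies were flat; the cells were kept in CESM, a mixture of PSGro human stem cell medium with conventional monkey ESC medium and passaged weakly as single cells. Colony shape, medium and passage behaviour coincide with the groups and cannot be told apart. The labels give neither the animals or lines behind the libraries nor whether the libraries of a group came from separate cultures, so p-values measure the spread between these libraries only. In their titles dome-shaped replicates 1 and 2 and primed replicate 1 carry the number 1 after CES. Dome-shaped replicate 3 and primed replicate 2 carry 2, and dome-shaped replicate 4 and primed replicates 3 and 4 carry 3. What the number stands for is not given, so libraries that share it may not be independent.

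The implied depth was 14401500 to 17678000 reads in dome-shaped and 16358000 to 18075500 in primed libraries. Of 8 stem cell markers 5 were found, and 2 of them, TDGF1 and TERF1, fell, beside 7.96% of all rows tested. SOX2, LIN28A and SALL4 were at 159 RPKM or more in every library (RPKM, read counts scaled to gene length and library size) and were not called, although LIN28A was lower in every dome-shaped than in any primed library (log2 fold change -0.33, limma adjusted p = 0.0608). TERF1, a telomere protein gene, stood at 139 to 234 RPKM in dome-shaped and 268 to 310 RPKM in primed libraries (log2 fold change -0.69, limma adjusted p = 0.0169). TDGF1, a co-receptor of NODAL (log2 fold change -2.41, limma adjusted p = 0.0313), stood at 21.8, 80.1, 57.0 and 273 RPKM in dome-shaped replicates 1 to 4, against 317 to 515 RPKM in primed libraries, so that dome-shaped replicate 4 was the nearest to the primed range. Of the markers of other cell types that were found, the 4 trophoblast genes summed to 4.63 to 8.30 RPKM in dome-shaped and 19.6 to 33.5 RPKM in primed libraries. They did not move together. KRT7 and HAND1 fell (limma adjusted p = 0.00128 and 0.0219), and GATA3 overlapped between the groups and was not called (limma adjusted p = 0.204). CDX2, below the filter, averaged 0.719 RPKM in dome-shaped and 0.438 RPKM in primed libraries. The endoderm gene FOXA2 stood at 0.793 (replicate 4) to 7.75 RPKM in dome-shaped and 23.0 to 39.7 RPKM in primed libraries. The 5 fibroblast genes summed to 18.7 to 27.1 RPKM in dome-shaped and 25.3 to 66.1 RPKM in primed libraries, but did not move together. PDGFRB fell (log2 fold change -0.75, limma adjusted p = 0.0247), while COL3A1 stood at 3.94, 7.09, 5.70 and 0.218 RPKM in dome-shaped replicates 1 to 4, against 0.0577 to 3.91 RPKM in primed libraries, and was not called (log2 fold change 1.33, limma adjusted p = 0.200). COL3A1 was thus lower in dome-shaped replicate 4 than in replicates 1 to 3, as ZNF521 was, but reached 3.91 RPKM in primed replicate 1. THY1 went the other way, at 9.71, 13.2, 13.7 and 22.9 RPKM in dome-shaped replicates 1 to 4. It stood at 15.3 to 52.2 RPKM in primed libraries and was not called (log2 fold change -0.86, limma adjusted p = 0.164). LUM was at 11.8 RPKM in primed replicate 3 and at most 0.574 RPKM elsewhere. The neural gene NES stood at 220 to 324 RPKM in dome-shaped and 201 to 422 RPKM in primed libraries. The blood gene PTPRC was at or near 0. The part of these cells in the ZNF values was not tested.

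Most ZNF genes called between the states were higher in dome-shaped cells. Of these calls, 4 held in every fit that left out a library. Of the 65 genes, 59 reached 1 RPKM in 4 or more of the 8 libraries and were tested, none of them through 1 group alone. By limma on log2(RPKM + 1), 7 of the 59 rose in dome-shaped cells (ZNF521, ZNF280C, ZNF711, ZNF445, ZNF367, ZNF182 and ZNF197) and 1 fell (ZNF462), at an adjusted p under 0.05 over all 15597 rows tested. These shares, 11.9% and 1.69%, stand beside 6.38% and 7.96% of all rows and 7.12% and 7.74% of the other named rows. Among 148 tested rows without a name whose protein matches led to a ZNF symbol, 6.76% rose and 1.35% fell. The median log2 fold change, dome-shaped minus primed, was 0.13 over the 59 ZNF genes and 0.03 over all rows tested. Without dome-shaped replicate 4 the fit called 12 ZNF genes higher and 2 lower, beside 8.15% and 9.35% of all rows.

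**Figure D1:**
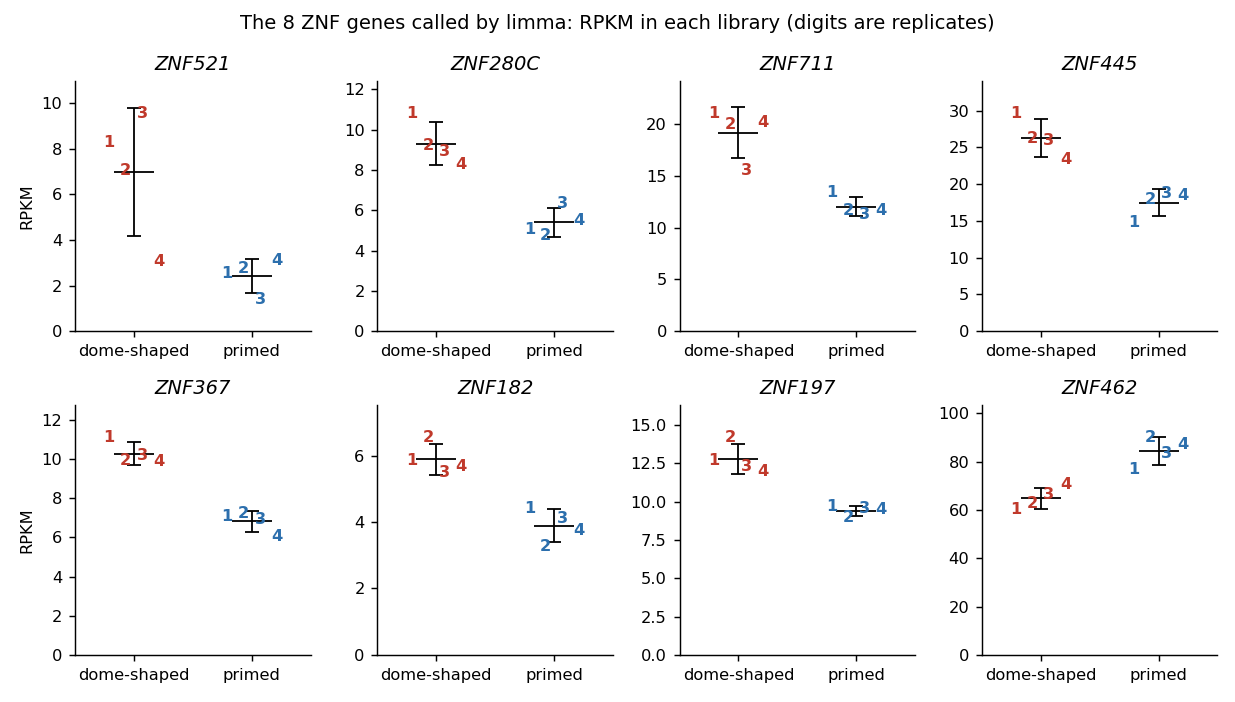
RPKM (y axis, from 0) of the 8 ZNF genes called by limma, in dome-shaped libraries at left and primed libraries at right; each digit is the replicate of 1 library, and bars are mean and SD of 4 libraries. The groups are apart for 7 of the genes, while dome-shaped replicate 4 of ZNF521, at 3.05 RPKM, lies among the primed libraries.

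ZNF521 had the largest difference. It encodes a protein with many fingers that binds the NuRD co-repressor and, in mouse ESCs, drives neural differentiation. Its level was 8.29, 7.04, 9.54 and 3.05 RPKM in dome-shaped replicates 1 to 4, against 2.53, 2.75, 1.38 and 3.09 RPKM in primed replicates 1 to 4. Dome-shaped replicates 1 to 3 were thus above every primed library, and replicate 4 was inside the primed range. The log2 fold change was 1.16 (SE 0.31, limma adjusted p = 0.0357). Among the 8 fits that left out a library it was called in the fit without dome-shaped replicate 4 alone, and its adjusted p reached 0.0936 in the others. NES, the neural progenitor marker, overlapped between the groups (log2 fold change 0.03, limma adjusted p = 0.945).

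ZNF711 and ZNF516 are the other genes on the list for a known place in development that the authors' annotation names. ZNF711, a relative of ZFX that recruits the histone demethylase PHF8 and is mutated in X-linked intellectual disability in humans, stood at 21.0, 20, 15.5 and 20.1 RPKM in dome-shaped libraries, against 13.4, 11.7, 11.3 and 11.7 RPKM in primed libraries. Every dome-shaped library was above every primed one (log2 fold change 0.62, SE 0.12, limma adjusted p = 0.0107), and the call held whichever library was left out. ZNF516, an activator of brown fat genes in the mouse, was not called. It stood at 11.5, 6.67, 7.28 and 5.50 RPKM in dome-shaped libraries, against 2.36, 6.29, 4.88 and 6.0 RPKM in primed libraries, and its groups overlapped (log2 fold change 0.59, SE 0.28, limma adjusted p = 0.187). Of the 11 genes on that list the annotation names 3, of which 2 rose and none fell, beside 6.38% and 7.96% of all rows. Of the 2 that rose, ZNF521 was lost in 7 of the 8 fits without a library.

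ZNF445 is a KRAB protein that, with ZFP57, protects the methylation of imprinted genes in human and mouse. Its level was 29.6, 26.2, 25.9 and 23.4 RPKM in dome-shaped libraries, against 14.8, 17.9, 18.8 and 18.5 RPKM in primed libraries. The groups were apart in all 8 libraries, and the gene rose to a mean 50.0% above that of primed cells (log2 fold change 0.56, SE 0.11, limma adjusted p = 0.0117). The call held whichever library was left out, with log2 fold changes of 0.49 to 0.61. Of the 18 genes on the list of transposon and imprint binders the authors' annotation names 2, and ZNF445 was the 1 called. So 1 of the 2 rose and none fell, beside 6.38% and 7.96% of all rows. The other, ZNF600, was low, at 2.77, 2.05, 2.47 and 0.629 RPKM in dome-shaped libraries, against 0.928, 1.13, 1.29 and 1.34 RPKM in primed libraries; dome-shaped replicate 4 was the lowest of all 8 libraries. ZNF600 was not called over all libraries (log2 fold change 0.39, SE 0.26, limma adjusted p = 0.337) and was called without that library (log2 fold change 0.66, limma adjusted p = 0.0274).

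The other 2 KRAB genes that rose were ZNF182 and ZNF197. ZNF197 encodes a KRAB and SCAN protein, of which a form in human cells binds the VHL tumour suppressor. It stood at 12.7, 14.2, 12.3 and 12 RPKM in dome-shaped libraries, against 9.67, 8.94, 9.55 and 9.51 RPKM in primed libraries (log2 fold change 0.40, SE 0.10, limma adjusted p = 0.0278). ZNF182 stood at 5.84, 6.55, 5.48 and 5.67 RPKM in dome-shaped libraries, against 4.40, 3.25, 4.12 and 3.76 RPKM in primed libraries (log2 fold change 0.50, SE 0.13, limma adjusted p = 0.0351). The groups of both genes were apart. Both calls were fragile to single libraries. ZNF197 was lost without dome-shaped replicates 2 or 3 or primed replicates 2, 3 or 4 (adjusted p up to 0.0919). ZNF182 was lost without any single library but dome-shaped replicate 4 and primed replicate 1 (adjusted p up to 0.109).

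ZNF280C and ZNF367 have C2H2 fingers and no annotated KRAB box. ZNF280C stood at 10.8, 9.22, 8.92 and 8.28 RPKM in dome-shaped libraries, against 5.05, 4.73, 6.36 and 5.48 RPKM in primed libraries, a log2 fold change of 0.69 (SE 0.13, limma adjusted p = 0.0116). ZNF367 stood at 11.1, 9.90, 10.2 and 9.89 RPKM in dome-shaped libraries, against 7.07, 7.23, 6.93 and 6.03 RPKM in primed libraries, a log2 fold change of 0.53 (SE 0.11, limma adjusted p = 0.0145). Neither gene's groups overlapped, and both calls held whichever library was left out. With ZNF711 and ZNF445 these were the 4 ZNF genes called in every such fit. ZNF280C stayed called with the number after CES in the titles as a replicate block (limma adjusted p = 0.0472). ZNF367 did not (limma adjusted p = 0.064).

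ZNF462 was the most abundant ZNF gene and the only one that fell. It encodes a large protein that, in mouse ESCs, keeps genes of other lineages in heterochromatin. Its level was 60.4, 62.6, 66.3 and 70.4 RPKM in dome-shaped libraries, against 76.6, 90.1, 83.4 and 87.1 RPKM in primed libraries, so that no dome-shaped library reached the lowest primed one. The log2 fold change was -0.37 (SE 0.08, limma adjusted p = 0.0167). The call was lost without dome-shaped replicate 2 (adjusted p = 0.0515), primed replicate 2 (0.0616) or primed replicate 4 (0.0525). Of the 12 genes on the list of pluripotency and reprogramming factors the authors' annotation names 3. Of these 3, none rose and 1 fell, beside 6.38% and 7.96% of all rows. Those other than ZNF462 were not called. ZNF24, a SCAN protein needed for myelination in the mouse, averaged 32.2 ± 1.94 RPKM in dome-shaped and 32.2 ± 1.22 RPKM in primed cells (SD, n = 4 each; limma adjusted p = 0.990). ZNF589, a KRAB protein of human blood stem cells, averaged 27.0 ± 0.872 RPKM in dome-shaped and 26.6 ± 3.81 RPKM in primed cells (SD, n = 4 each; limma adjusted p = 0.868).

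The other abundant ZNF genes, which have no annotated KRAB box, were not called. ZNF384, a factor that binds promoters of matrix genes, averaged 52.3 ± 4.72 RPKM in dome-shaped and 51.2 ± 2.80 RPKM in primed cells (SD, n = 4 each; limma adjusted p = 0.854). ZNF326, a subunit of the DBIRD complex that couples RNA polymerase II to splicing, averaged 47.8 ± 6.43 RPKM in dome-shaped and 51.0 ± 3.21 RPKM in primed cells (SD, n = 4 each; limma adjusted p = 0.557). ZNF740 averaged 34.7 ± 1.55 RPKM in dome-shaped and 40.1 ± 6.71 RPKM in primed cells (SD, n = 4 each; limma adjusted p = 0.284). ZNF593, whose yeast relative takes part in export of the large ribosomal subunit, stood at 22, 38.3, 39.6 and 39.2 RPKM in dome-shaped libraries, against 46.1, 47.4, 47.1 and 42.1 RPKM in primed libraries. Its groups did not overlap, dome-shaped replicate 1 was far below the rest, and it was not called (log2 fold change -0.42, SE 0.18, limma adjusted p = 0.137). ZNF326 and ZNF593 were the 2 genes that the authors' annotation names of the 10 on the RNA and ribosome list. Neither was called, beside 6.38% of all rows called higher and 7.96% lower. At an unadjusted p under 0.05, 1 of them was lower, beside 15.4% of all rows.

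Of the 51 tested ZNF genes that were not called, 33 had a positive and 18 a negative log2 fold change, from -0.68 to 0.59. The lower end was shared by ZNF717 and ZNF732. ZNF717, at -0.68, was measured on 222 annotated bases, and its libraries ranged from 1.02 to 6.25 RPKM in dome-shaped and from 0 to 11.2 RPKM in primed cells. ZNF732, also at -0.68, stood at 3.18 to 5.54 RPKM in dome-shaped and 6.61 to 11.6 RPKM in primed libraries (limma adjusted p = 0.0588); both genes were singled out after their values were seen. At an unadjusted p under 0.05, 11 ZNF genes were higher (18.6%) and 5 lower (8.47%), beside 16.2% and 15.4% of all rows, so the share higher was near that of all rows. Only ZNF521 had a log2 fold change of 1 or more either way on the log2(RPKM + 1) scale. This is 1.69% of the 59, beside 6.23% of all rows, 5.55% of the other named rows and 7.34% of these at matched expression level. By the ratio of mean RPKM, ZNF717 also differed by more than 2-fold, at 0.443.

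**Figure D2:**
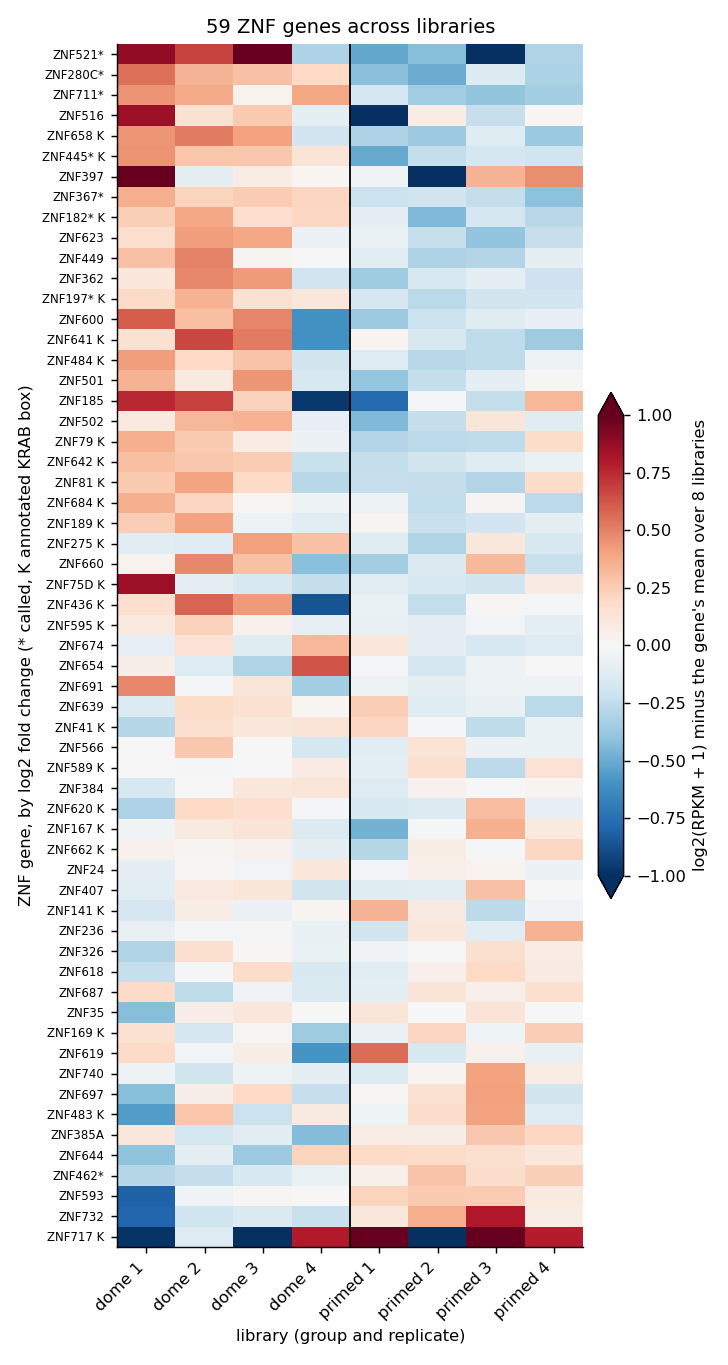
Colour gives log2(RPKM + 1) minus the gene's mean over the 8 libraries (capped at -1 and 1) for the 59 tested ZNF genes, in rows by log2 fold change, with dome-shaped libraries at left and primed libraries at right of the line. An asterisk marks the 8 called genes and K an annotated KRAB box. Many upper rows are red in dome-shaped replicates 1 to 3 and paler or blue in replicate 4, but not all. ZNF711 is paler in replicate 3 (0.032) than in replicate 4 (0.384).

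Dome-shaped replicate 4 was the lowest of the 4 dome-shaped libraries for 33 of the 59 genes, against 16 for replicate 1 and 5 each for replicates 2 and 3. The median deviation of the ZNF genes from their own mean over the 8 libraries was 0.102, 0.158, 0.116 and -0.081 (log2) in dome-shaped replicates 1 to 4, against -0.105, -0.133, -0.0513 and -0.0527 in primed replicates 1 to 4. Replicates 1 to 3 were above every primed library and replicate 4 was within the primed range. The other named rows at matched level had 0.0867, 0.00152, -0.0301 and -0.0485 in dome-shaped replicates 1 to 4, against -0.0644, 0.00288, -0.0141 and 0.0426 in primed replicates 1 to 4. Dome-shaped replicate 1 was thus high, and dome-shaped replicate 4 and primed replicate 1 low, in both sets of genes. The summed level of the 65 genes showed no such order: it was 748, 800, 789 and 740 RPKM in dome-shaped libraries, against 726, 753, 800 and 767 RPKM in primed libraries. In bulk RNA, fewer cells that express a gene and less RNA per cell cannot be told apart.

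The InterPro annotation in the table, which played no part in the choice of genes, put a KRAB box in 26 of the 65 genes, a SCAN domain in 8 and both in 5. It listed a C2H2 finger for 62. The exceptions were ZNF185, with a LIM-type finger of the kind found in cytoskeletal proteins, ZNF717, with the KRAB box alone on its short sequence, and ZNF654, with no entry. A missing entry does not show that the full protein lacks the domain.

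Of the 24 tested genes with an annotated KRAB box 3 rose, none fell and 20 had a positive log2 fold change, with a median of 0.21 (lower quartile 0.03, upper quartile 0.33). Of all rows 6.38% rose, 7.96% fell and 53.2% had a positive value. The 35 tested genes without one held 4 that rose and 1 that fell, 20 positive values and a median of 0.11 (quartiles -0.12 and 0.40). No test of the difference between these classes was made. By library the KRAB median deviation was 0.161, 0.224, 0.121 and -0.071 in dome-shaped replicates 1 to 4, against -0.109, -0.201, -0.148 and -0.0653 in primed replicates 1 to 4. Here too the fourth dome-shaped library stood inside the primed range. The 4 KRAB genes with a negative value, ZNF717, ZNF483, ZNF169 and ZNF141, were not called. Of the 8 tested SCAN genes, ZNF445 and ZNF197 rose and none fell; the others were ZNF24, ZNF167, ZNF397, ZNF449, ZNF483 and ZNF75D.

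**Figure D3:**
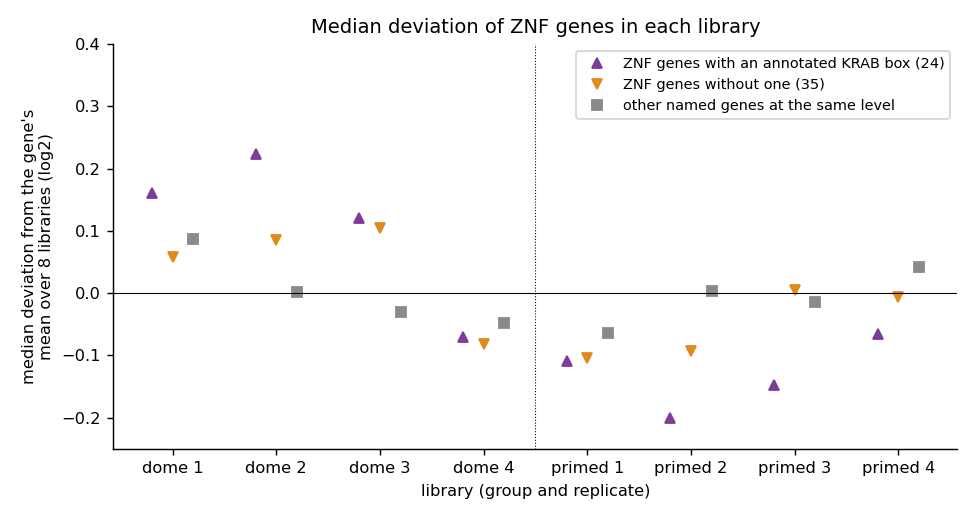
Median deviation from each gene's mean over the 8 libraries (log2, y axis) in each library, dome-shaped at left, for 24 ZNF genes with an annotated KRAB box, 35 without one and the other named genes at the same level. ZNF medians are positive in dome-shaped replicates 1 to 3 and at -0.071 and -0.081 in replicate 4.

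ZNF genes were expressed at low to moderate levels. The median of the 59 was 7.36 RPKM (mean over 8 libraries, range 1.58 to 74.6), against 16.3 RPKM for the 2921 other tested rows with a gene name. The fold changes were therefore set beside those of other named rows of the same level, in classes of mean RPKM weighted by the ZNF genes in each. At matched level the other named rows had 7.43% higher and 8.53% lower, beside 11.9% and 1.69% of the ZNF genes. A positive log2 fold change was found in 67.8% of ZNF genes and 52.0% of the others at matched level. The ZNF median exceeded that of the others at matched level by 0.12 (log2). The median SD within groups was 0.194 for ZNF genes and 0.235 for the others at matched level, and 45.8% and 47.4% differed by less than 20% between group means.

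The difference from the other named rows varied with level. ZNF medians were above theirs in every class under 20 RPKM, by most under 5 RPKM, and below theirs from 20 RPKM. The 3 ZNF genes under 2 RPKM had a median of 0.15, against -0.164 for the others. The 2 at 50 RPKM or more had a median of -0.17, against 0.014 for the others. Of the 18 ZNF genes at 2 to 5 RPKM, 15 had a positive value, with a median of 0.30, against -0.025 for the other named rows of that class. Of the 15 at 5 to 10 RPKM, 9 were positive with a median of 0.06, against 0.05 for the others. Of the 11 at 10 to 20 RPKM, 9 were positive with a median of 0.12, against 0.045 for the others. Of the 10 at 20 to 50 RPKM, 3 were positive with a median of -0.10, against 0.03 for the others. When rows with a mean under 5 RPKM were left out of the fit, the ZNF median was 0.03 and its difference from the others at matched level was -0.01. In that fit 5 of 38 ZNF genes rose and 1 fell, beside 7.03% and 7.44% of all rows.

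**Figure D4:**
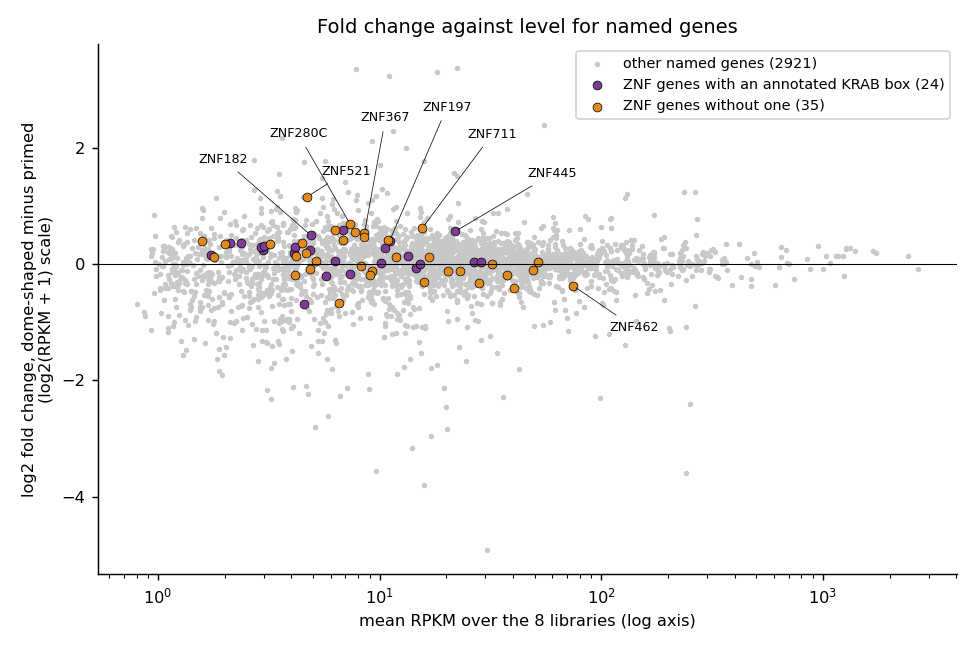
Log2 fold change, dome-shaped minus primed (y axis), against mean RPKM over the 8 libraries (x axis, log) for named genes, with ZNF genes coloured by an annotated KRAB box and the 8 called genes labelled. ZNF genes lie between -0.68 and 1.16, inside the range of -4.92 to 3.37 of the other named genes.

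**Figure D5:**
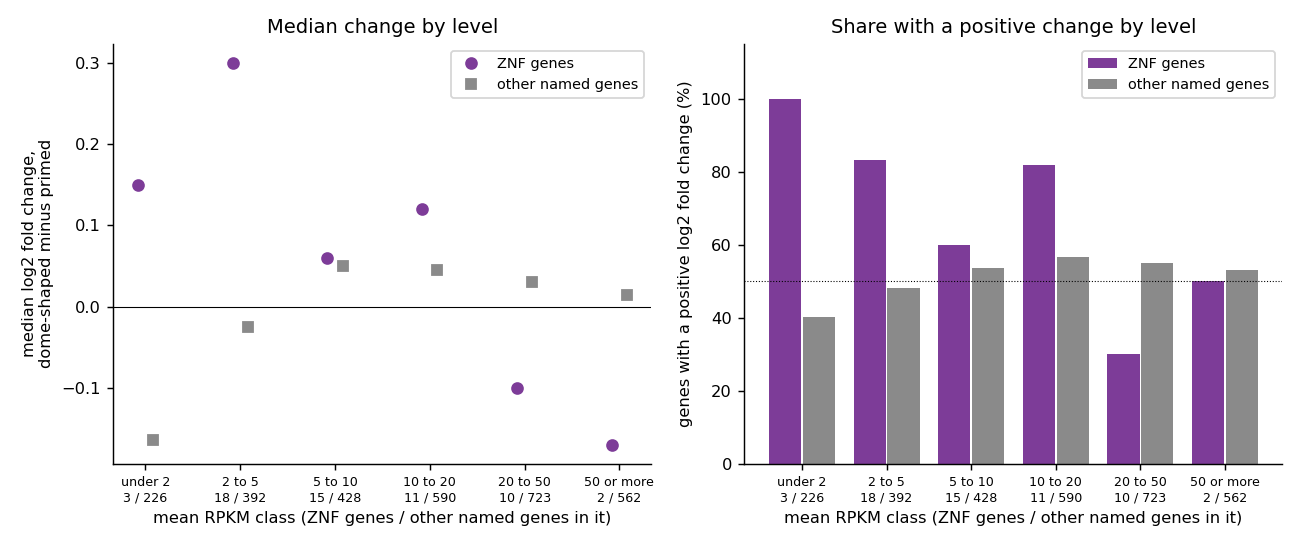
Median log2 fold change, dome-shaped minus primed (left), and percent of genes with a positive value (right, from 0) in 6 classes of mean RPKM, for ZNF genes and other named genes; the number in each is under the axis. ZNF genes are above the others at 2 to 5 RPKM (0.30 against -0.025) and below them at 20 to 50 RPKM (-0.10 against 0.03), and the outer classes hold 3 and 2 ZNF genes.

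The groups did not overlap for 11 of the 59 genes. The dome-shaped libraries were all above the primed ones for 8 (13.6%, against 11.5% of all rows, 12.2% of other named rows and 12.6% of these at matched level) and all below for 3 (5.08%, against 10.7% of all rows and of other named rows and 11.3% at matched level). Beside the called genes, ZNF449 and ZNF623 were above and ZNF593 and ZNF732 below. ZNF623 stood at 9.45, 11.4, 11.1 and 7.94 RPKM in dome-shaped libraries, against 7.87, 6.91, 6.06 and 6.91 RPKM in primed libraries (limma adjusted p = 0.0573); it was chosen after its values were seen, and its protein matches name ZNF271.

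Some ZNF genes lie side by side in the genome. Of the 65 names, 59 were found in the RefSeq gene table of assembly T2T-MFA8v1.1, which was used for gene order only. With at most 2 other protein-coding genes between neighbours, 25 of them fell into 10 runs, the longest with 6 genes. In that run the log2 fold changes were 0.56 for ZNF445, 0.20 for ZNF660, 0.40 for ZNF197, -0.12 for ZNF35, 0.35 for ZNF502 and 0.35 for ZNF501. Of the 6, 2 were called, both higher, beside 6.38% of all rows. In the run of ZNF81, ZNF182 and ZNF630, ZNF182 rose, ZNF81 stood at 0.29 (limma adjusted p = 0.317) and ZNF630 was below the filter. The other runs were pairs without a called gene. Their values were -0.32 and -0.10 (ZNF644, ZNF326), 0.36 and 0.58 (ZNF484, ZNF658), -0.09 and 0.59 (ZNF236, ZNF516). Further pairs had -0.0017 and 0.55 (ZNF24, ZNF397), -0.18 and 0.03 (ZNF619, ZNF620), -0.68 and -0.06 (ZNF732, ZNF141). The last had 0.19 and 0.41 (ZNF75D, ZNF449), and 0.06 for ZNF41 beside ZNF157, below the filter. Neighbouring ZNF genes are often near copies, and a read that fits 2 copies cannot be assigned from this table.

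The 6 ZNF genes below the filter were ZNF645, ZNF683, ZNF485, ZNF157, ZNF630 and ZNF70. ZNF645, a testis gene, was listed at 0 in every library. ZNF683, which encodes the lymphocyte factor HOBIT, had a value above 0 in 1 library of each group, and neither passed 0.036 RPKM. ZNF485 had at most 0.06 RPKM, ZNF157 and ZNF630 had group means of at most 0.554 RPKM, and ZNF70 averaged 1.03 ± 0.379 RPKM in dome-shaped and 0.768 ± 0.153 RPKM in primed cells (SD, n = 4 each).

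Of the proteins that KRAB factors work through, none was called. The list held 38 genes, of which 27 were found and 26 tested; TRIM28 itself was paired with no row and is not analysed here. By limma none rose and none fell, beside 6.38% and 7.96% of all rows. At an unadjusted p under 0.05, 2 were higher and 4 lower, beside 16.2% and 15.4% of all rows. The median log2 fold change was -0.05. SETDB1, the histone methyltransferase of the pathway, stood at 45.4, 45.7, 53.2 and 45.8 RPKM in dome-shaped libraries, against 51.3, 60.1, 65.5 and 58.2 RPKM in primed libraries, and its groups overlapped (log2 fold change -0.30, SE 0.09, limma adjusted p = 0.0608). It was called lower without primed replicate 1 (adjusted p = 0.0375) and with median-of-ratios scaling (adjusted p = 0.0479). Without dome-shaped replicate 1 the deacetylase gene HDAC1 was called lower (log2 fold change -0.51). Without dome-shaped replicate 4 the histone chaperone gene DAXX was called lower (-0.47) and the HP1 gene CBX5 higher (0.24).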

How the data were processed

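The authors deposited 1 table of RPKM values for 8 libraries, with gene names, InterPro text, a query length and protein matches per row, the identity of a match being a percent, per the file headers. HTSeq 0.6.1, TopHat2 2.0.9 and Bowtie2 2.0.6 were used, per the submitters' processing notes. Build, annotation and strand use: not given in the sources used here. Of 33138 rows, 17 blank ones were left out. The columns of dome-shaped replicates 1 to 3 lack the last characters of their titles and were assigned by the part that is unique; the other columns carry the titles. The columns of other samples numbered 0. Replicates are numbered in the order of the series. Depth was read from the steps of RPKM times query length. Of values under 50 reads, 71.9% to 73.8% came within 0.01 of a whole read count, where chance gives 2%. By that depth the called ZNF genes had at least 102 reads in every library.

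Log2(RPKM + 1) values of rows with at least 1 RPKM in at least 4 libraries were fitted with limma 3.58.1 in R 4.3.3 (eBayes with a trend, two-sided, all 8 libraries, no covariates), with Benjamini-Hochberg adjustment over 15597 rows and a threshold of 0.05. Fold changes on this scale understate those of low genes. On simulated data for this comparison with 15597 rows, 73 of 100 rows changed by a log2 fold of 1 were recovered. Of 100 rows changed by 2, 93 were recovered, and 6 unchanged rows were called. Smaller changes, like those of most called ZNF genes, were not simulated. Rows without a name took the RefSeq symbol of a protein match whose score reached 0.95 of the best and whose identity reached 85%. Level classes were cut at 2, 5, 10, 20 and 50 RPKM. Members, lists and tests were chosen with earlier results of these data known. Only ZNF genes that the authors' annotation names were counted as measured genes of the role lists. Genes named are the called ZNF genes (up to 10 a direction), the 5 most abundant and the measured genes of 4 role lists (up to 4 each with the smallest adjusted p), besides TRIM28, SETDB1 and up to 4 called co-repressors; others are said to be outside this rule or are named to account for a class.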

Additional observations from a re-analysis of the deposited data

Results flagged for a closer look

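In 118 groups of 4 libraries (59 ZNF genes in each state), 12 had a highest or lowest library set far from the other 3, where chance gives about 1 in 20. Dome-shaped replicate 1 accounted for 5 of them. It was the highest dome-shaped library for ZNF397, at 15.7 RPKM against 6.24 to 7.13 in the others, and for ZNF75D, at 7.99 against 3.22 to 3.65 RPKM. It was the lowest for ZNF732, at 3.18 against 5.22 to 5.54 RPKM, for ZNF593, at 22 against 38.3 to 39.6 RPKM, and for ZNF41, at 4.94 against 6.82 to 7.05 RPKM. Dome-shaped replicate 4 accounted for 3. It was the highest for ZNF589, at 28.3 against 26.4 to 26.6 RPKM, and the lowest for ZNF662, at 14.0 against 15.4 to 15.6 RPKM, and for ZNF642, at 2.31 against 3.61 to 3.75 RPKM. Among primed libraries, replicate 4 was the highest for ZNF79, at 3.47 against 2.22 to 2.31 RPKM, and for ZNF81, at 4.74 against 3.11 to 3.28 RPKM. Primed replicate 3 was the highest for ZNF620, at 35.3 against 25.4 to 26.8 RPKM, and primed replicate 2 the lowest for ZNF691, at 10.9 RPKM, with the others at 11.3 RPKM. None of these genes was called between the states over all 8 libraries.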

How the results depend on the processing

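The count of ZNF genes that rose was 7 over all 8 libraries, 4 to 12 over the fits that left out 1 library and 3 to 9 over the other settings; the count that fell was 1, then 0 to 2 and 1. The first count was 4 (6.78% of the tested ZNF genes) without dome-shaped replicates 2 or 3 or primed replicates 2, 3 or 4. In these fits 2.27% to 3.08% of all rows were higher, beside 6.38% over all 8 libraries. The first count was 12 (20.3%) without dome-shaped replicate 4, beside 8.15% of all rows. The cause was not tested. The ZNF median log2 fold change ran from 0.09 to 0.18 over those fits, and its difference from other named genes at matched level from 0.08 to 0.16. At a mean of at least 5 RPKM, which leaves out the lower genes, they were 0.03 and -0.01. With the number after CES in the titles as a replicate block, 3 ZNF genes rose and 1 fell, beside 1.94% and 3.8% of all rows; ZNF182, ZNF197, ZNF367 and ZNF521 were lost (adjusted p up to 0.0971). Libraries with the same number did not deviate together (correlations from -0.098 to 0.125 over 5 pairs, against -0.223 to 0.201 over 11 other pairs). These few pairs cannot show whether libraries with the same number share a line or culture, which the labels do not give. With no filter ZNF182 and ZNF521 were lost (adjusted p = 0.0648 and 0.0668). No name had 2 rows, so summing rows changed nothing, and leaving out the 3 members whose matches name other genes, an alternative chosen after seeing the data, left 7 and 1. Of the co-repressor genes, 1 was lower with median-of-ratios scaling, and 0 to 1 in each direction over the fits that left out a library. Uncalled genes near 0 changed sign: ZNF24 (0.02 with the block and without primed replicate 2, 0.03 without dome-shaped replicate 1, 0.006 without dome-shaped replicate 3, 0.01 without primed replicate 3; -0.04 to 0.03 over all fits that left out a library), ZNF384 (-0.0027 without dome-shaped replicate 3, -0.008 without dome-shaped replicate 4, -0.01 without primed replicate 1) and ZNF589 (-0.05 without primed replicate 3).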

Other observations

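Rows with no gene name in the table whose protein matches led to a ZNF symbol in RefSeq numbered 162, of which 148 passed the same filter. By limma 10 of them rose (6.76%) and 2 fell (1.35%) in dome-shaped cells, with a median log2 fold change of 0.17 and a positive value in 111. Of all rows 6.38% rose, 7.96% fell and 53.2% had a positive value, so the share that rose was near that of all rows; the same shares stand beside the 2 sets that follow. The 64 tested rows with another name and an annotated C2H2 finger had 4 higher and 3 lower, a median of 0.15 and a positive value in 65.6%. The 20 tested rows named ZBTB, ZSCAN, ZKSCAN or ZFP with a number, other zinc finger names, had 2 higher and 1 lower and a median of 0.18. These rows come from the same 8 libraries, and 4 of the 162 led to the name of a ZNF gene already described.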
